A study of Mus musculus with 9 samples.

Results

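The glutathione S-transferases form a family of detoxifying enzymes, and 10 of their genes were followed here: Gsta1 and Gsta4 of class alpha, Gstm1 and Gstm2 of class mu, Gstp1 of class pi, Gstt1 of class theta, Gstk1 of class kappa, Gsto1 of class omega, and the membrane-bound enzymes Mgst1 and Mgst3. They were chosen by gene symbol to cover 7 classes of the family, with earlier results of these data known, and all 10 were found among the 15122 genes of the series. The series measured polyadenylated RNA in neonatal rat ventricular myocytes (NRVMs), heart muscle cells isolated from Sprague-Dawley rats that were 1 or 2 days old. The cells were kept in culture for 48 h, then infected at a multiplicity of infection of 50 with an adenovirus carrying LacZ (a bacterial enzyme, the control), mouse Nrf1 or mouse Nrf2, and collected 48 h after infection. There were 3 libraries in each of the 3 groups. In all of them the CMV promoter of the vector drove the inserted gene, and the vector also carried a red fluorescent protein. The labels name the organism as mouse, although the cells were rat and the reads were aligned to the rat genome.

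Glutathione S-transferases join the thiol of glutathione to electrophilic molecules, which makes these less reactive and ready for export from the cell. The alpha, mu, pi, theta and omega enzymes are soluble dimers, the kappa enzyme works in mitochondria and peroxisomes, and the microsomal enzymes belong to the membrane protein superfamily called MAPEG. Many genes of the family carry antioxidant response elements, to which Nrf2 (the product of Nfe2l2) and the related factor Nrf1 (the product of Nfe2l1, not nuclear respiratory factor 1) can bind.

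The files hold a mean for each group, and the whole reads of each library were worked out from these means. The libraries of a group are therefore named by their depth, as shallowest, middle and deepest, and values are listed in that order. The recovered reads came to 7757806, 8095865 and 9203482 in the LacZ libraries, 8599994, 10106864 and 10358172 in the Nrf1 libraries and 10199908, 11358078 and 11962911 in the Nrf2 libraries. The LacZ totals lack 27 genes whose reads were not recovered there. Among them are the abundant genes Nppa, Fth1 and Mybpc3, which the Nrf1 and Nrf2 totals include, so the LacZ totals are too low beside those. Levels are normalized counts, which are reads divided by a size factor set over all 9 libraries. Folds are ratios of deposited group means within a table. A gene is said to be called, to rise or to fall where its means differed by over 1.5-fold and limma, fitted across all genes on log2(normalized count + 1), gave an adjusted p under 0.05. Nothing states whether the 3 libraries of a group came from separate cultures or animals, so the p-values measure only the spread between these samples.

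Nfe2l2 was read first, as a check of the Nrf2 label. It stood at 3493, 3399 and 3473 normalized counts in the LacZ libraries, at 2869, 2893 and 2815 in the Nrf1 libraries and at 67553, 77442 and 78770 in the Nrf2 libraries. All 3 Nrf2 libraries were far above the other 6. Reads of the mouse transgene and of the rat gene cannot be told apart in these values. Nfe2l1 was not analysed here, so the LacZ and Nrf1 labels were not checked against each other. Some libraries stood apart from the others of their group. The chi-square per degree of freedom between libraries of a group, which is near 1 for sampling noise alone, ran from 1.5 to 4.93 and was highest between the middle and the deepest LacZ library. It was 4.47 and 3.56 between the shallowest Nrf2 library, which was also the lowest of its group in Nfe2l2, and the middle and deepest ones. Without the middle LacZ library the counts of members called were 5 higher and 2 lower with Nrf1 and 6 higher with Nrf2, and without the shallowest Nrf2 library 6 were called higher over LacZ and 5 over Nrf1. These counts equal those with all libraries.

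With Nrf1, 5 of the 10 members rose (Gsta4, Gstm1, Gstm2, Gstp1 and Mgst1) and 2 fell (Gsta1 and Mgst3), where 11.4% of the 11425 genes tested rose and 17.1% fell. With Nrf2, 6 of the 10 rose (those 5 and Gsta1) and 0 fell, against 9.26% and 9.71% of 11601 genes. In the direct comparison of Nrf2 with Nrf1, 5 members were higher with Nrf2 (Gsta1, Gsta4, Gstm1, Gstm2 and Gstp1) and 0 were lower, against 11.3% and 4.72% of 11504 genes. The comparisons with LacZ share the LacZ libraries, and each pair of comparisons shares a group. The median log2 ratio of the members was 0.64 with Nrf1, 2.35 with Nrf2 and 0.63 with Nrf2 over Nrf1. Over all genes tested the median was 0.0024, -0.0035 and -0.0054. Over all family genes, the chosen members among them, whose mean reached 10 in both groups, the median was lower, at 0.47 with Nrf1 (18 genes), 0.56 with Nrf2 (18 genes) and 0.082 with Nrf2 over Nrf1 (19 genes). With the genes that reached 10 in only 1 of the groups, Gstt2 with Nrf1, Gsta2, Gsta3 and Gstt2 with Nrf2, and Gsta2 and Gsta3 with Nrf2 over Nrf1, it was 0.47, 0.86 and 0.11. At 1.5-fold with no test, the counts of members were the same as those called. Beside each count of 0 lower members, 1 member had a lower mean and an unadjusted limma p under 0.05, which was Mgst3 with Nrf2 over LacZ and Mgst1 with Nrf2 over Nrf1.

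**Figure D1:**
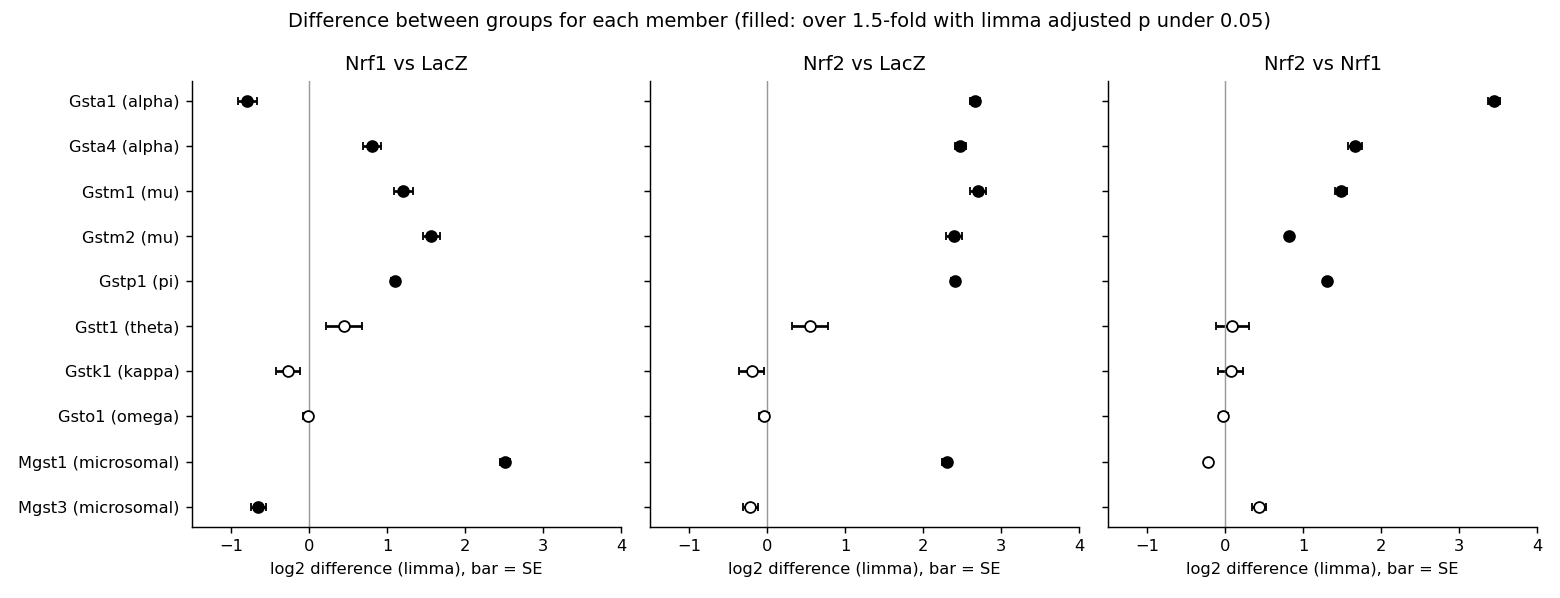
Log2 difference from limma (horizontal axis) of each of the 10 members (vertical axis, with class) in the 3 comparisons, with bars for the standard error and filled points for members called. With Nrf2 over LacZ the 6 filled points lie between 2.30 and 2.70, whereas with Nrf1 over LacZ they run from -0.79 to 2.51.

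Gsta1 and Gsta4 belong to class alpha, whose enzymes also reduce lipid hydroperoxides. Gsta1 stood at 141, 148 and 166 normalized counts in the LacZ libraries, 98.3, 80.9 and 83.3 in the Nrf1 libraries and 955, 986 and 951 in the Nrf2 libraries. The groups did not overlap, with every Nrf1 library below and every Nrf2 library above all LacZ libraries. Its mean was 1.74-fold lower with Nrf1 (limma log2 difference -0.79 ± 0.12 SE, adjusted p = 2.86e-05) and 6.36-fold higher with Nrf2 (2.66 ± 0.07, adjusted p = 6.97e-13). Between Nrf2 and Nrf1 the fold was 10.98 (limma log2 difference 3.45 ± 0.08, adjusted p = 1.34e-16), the highest of the 10 members in that comparison. Gsta1 was the only member called in opposite directions by the 2 factors over LacZ. The drop with Nrf1 did not reach 2-fold.

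Gsta4 is known for conjugating hydroxynonenal, an aldehyde formed when membrane lipids are oxidized. It stood at 160, 143 and 142 normalized counts with LacZ, 316, 236 and 234 with Nrf1 and 777, 878 and 833 with Nrf2. The groups did not overlap, and the shallowest Nrf1 library lay above the other Nrf1 libraries, so that the coefficient of variation in that group was 17.8%, the largest of any member in the Nrf1 group. The mean rose 1.76-fold with Nrf1 (limma log2 difference 0.80 ± 0.11, adjusted p = 1.29e-05) and 5.60-fold with Nrf2 (2.48 ± 0.07, adjusted p = 2.29e-12). The rise with Nrf1 did not reach 2-fold. With Nrf1, the class thus held 1 member that rose and 1 that fell.

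The class mu enzymes Gstm1 and Gstm2 act on aromatic electrophiles and quinones. Gstm1 stood at 77.0, 88.7 and 70.4 normalized counts with LacZ, 170, 179 and 199 with Nrf1 and 477, 509 and 560 with Nrf2. The 3 groups were ordered LacZ, Nrf1, Nrf2 with no overlap. Gstm1 had the largest fold of any member with Nrf2, at 6.55 (limma log2 difference 2.70 ± 0.10, adjusted p = 3.07e-11), and rose 2.32-fold with Nrf1 (1.21 ± 0.12, adjusted p = 2.78e-07). Gstm2 stood at 258, 178 and 240 normalized counts with LacZ, 639, 697 and 658 with Nrf1 and 1116, 1206 and 1219 with Nrf2. Its groups kept the same order without overlap, and the middle LacZ library was low for its group, which gave a coefficient of variation of 18.6% there. Gstm2 rose 2.94-fold with Nrf1 (limma log2 difference 1.57 ± 0.10, adjusted p = 2.42e-09) and 5.23-fold with Nrf2 (2.40 ± 0.10, adjusted p = 1.37e-10). Its fold between Nrf2 and Nrf1 was 1.77, the smallest among the 5 members called there and under 2-fold.

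Gstp1, the pi class enzyme, conjugates a broad range of electrophiles and also takes part in stress kinase signalling. It stood at 1396, 1209 and 1343 normalized counts with LacZ, 2848, 2781 and 2816 with Nrf1 and 6997, 7012 and 6907 with Nrf2. The spread within the groups was small beside the distance between them, with coefficients of variation of 7.33%, 1.19% and 0.817%. Gstp1 rose 2.14-fold with Nrf1 (limma log2 difference 1.10 ± 0.05, adjusted p = 1.70e-11) and 5.30-fold with Nrf2 (2.41 ± 0.05, adjusted p = 2.56e-14), and was 2.47-fold higher with Nrf2 than with Nrf1 (1.30 ± 0.02, adjusted p = 8.80e-18).

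The theta, kappa and omega members were not called in any of the 3 comparisons. Gstt1, which acts on small halogenated compounds, was the member with the fewest reads, at 19, 16 and 18 with LacZ, 23, 26 and 31 with Nrf1 and 35, 27 and 36 with Nrf2. In normalized counts it stood at 22.5, 17.96 and 18.1 with LacZ, 26.3, 25.4 and 29.3 with Nrf1 and 34.1, 23.6 and 29.8 with Nrf2. Both overexpression groups lay above LacZ, and they overlapped each other. The fold over LacZ was 1.38 for Nrf1 (limma adjusted p = 0.101) and 1.496 for Nrf2 (limma adjusted p = 0.0588). Without the middle Nrf2 library Gstt1 was called, with a log2 ratio of 0.71 and a limma adjusted p of 0.0426, which over all alternatives ran from 0.0302 to 0.202. The lowest of these, without limma's mean-variance trend, came with the same fold of 1.496 and so with no call.

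Gstk1, the mitochondrial and peroxisomal enzyme, stood at 56.9, 58.4 and 62.3 normalized counts with LacZ, 50.3, 47.8 and 48.3 with Nrf1 and 43.8, 58.6 and 53.0 with Nrf2. The Nrf1 libraries lay below the LacZ libraries, and the Nrf2 libraries overlapped both groups. Over LacZ the limma log2 difference was -0.27 ± 0.15 for Nrf1 (adjusted p = 0.127) and -0.20 ± 0.16 for Nrf2 (adjusted p = 0.314). Gsto1, which has thioltransferase and dehydroascorbate reductase activity, stood at 531, 525 and 556 normalized counts with LacZ, 537, 526 and 530 with Nrf1 and 573, 507 and 495 with Nrf2. All 3 groups overlapped. Its limma log2 difference over LacZ was -0.019 ± 0.05 for Nrf1 (adjusted p = 0.774) and -0.035 ± 0.06 for Nrf2 (adjusted p = 0.661).

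**Figure D2:**
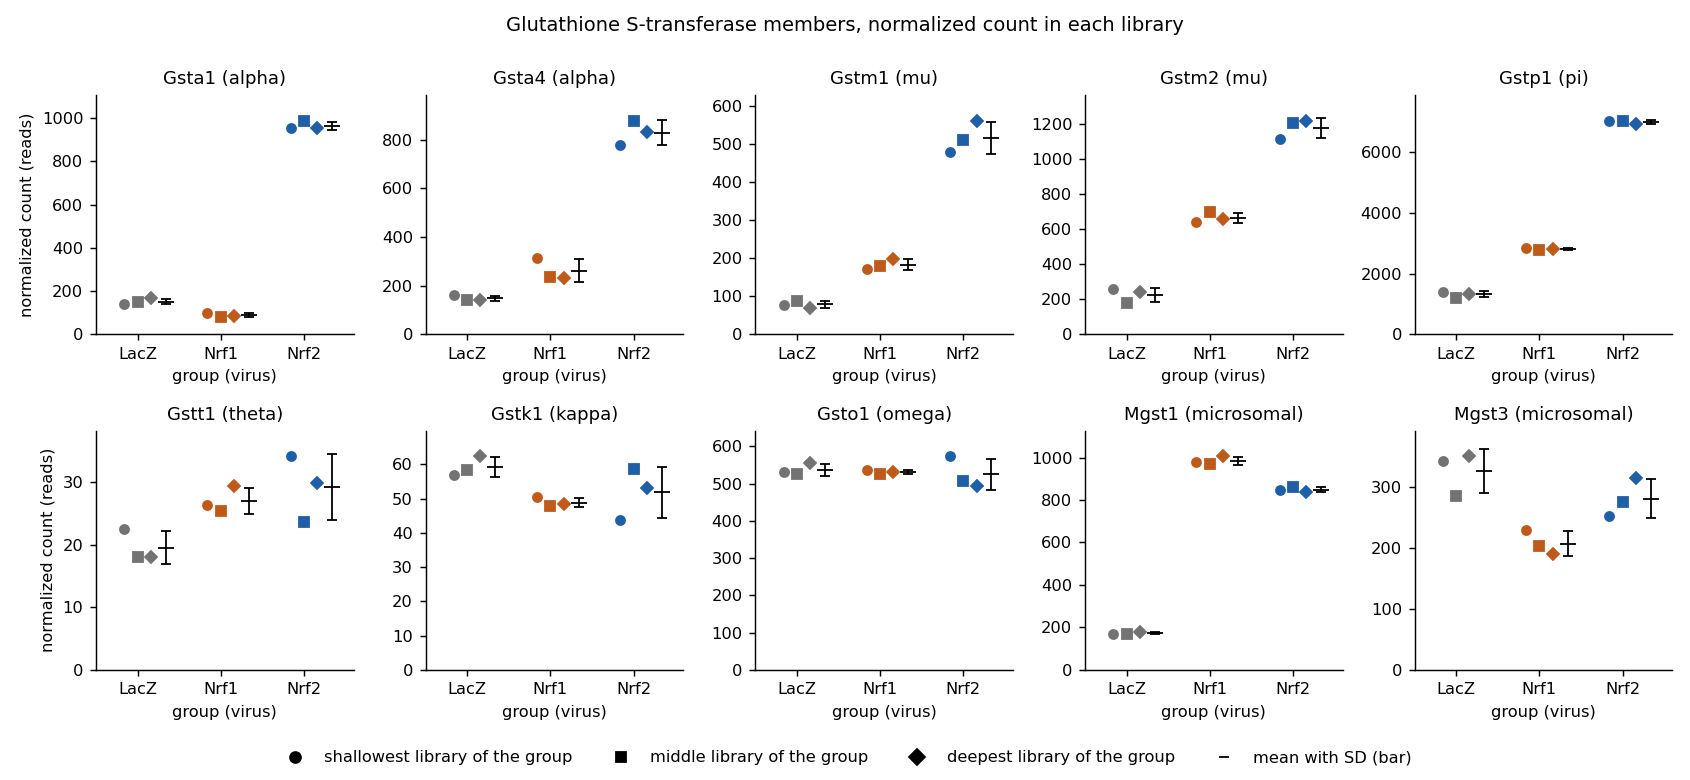
Normalized counts (vertical axes, from 0) of the 10 members in each library by group (horizontal axes), with bars for the mean and its SD over 3 libraries. Gstp1 runs from 1209 in the lowest LacZ library to 7012 in the highest Nrf2 library, Gsta1 is lowest in the Nrf1 group, and the Gsto1 values overlap between all groups.

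The microsomal members differed from each other. Mgst1 conjugates electrophiles and reduces lipid hydroperoxides in membranes. It stood at 168, 170 and 177 normalized counts with LacZ, 978, 971 and 1005 with Nrf1 and 848, 860 and 836 with Nrf2. All 6 overexpression libraries were above the LacZ libraries, and all 3 Nrf1 libraries were above the Nrf2 libraries. Mgst1 had the largest fold of any member with Nrf1, at 5.73 (limma log2 difference 2.51 ± 0.06, adjusted p = 1.28e-14), and rose 4.95-fold with Nrf2 (2.30 ± 0.06, adjusted p = 6.98e-13). It was the only member called higher over LacZ whose mean was lower with Nrf2 than with Nrf1, and that difference was past limma's threshold but small, at 1.17-fold (log2 difference -0.22 ± 0.04, adjusted p = 0.000116).

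Mgst3, a MAPEG enzyme with peroxidase activity, stood at 343, 285 and 350 normalized counts with LacZ, 229, 203 and 189 with Nrf1 and 252, 275 and 315 with Nrf2. The Nrf1 libraries were the lowest, and the LacZ and Nrf2 libraries overlapped. Mgst3 fell 1.58-fold with Nrf1 (limma log2 difference -0.65 ± 0.10, adjusted p = 1.89e-05), which did not reach 2-fold, and was not called with Nrf2 (-0.21 ± 0.10, adjusted p = 0.072). The difference between Nrf2 and Nrf1 was past limma's threshold (0.43 ± 0.09, adjusted p = 0.000523) at 1.35-fold, under the fold used for a call.

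Counted over libraries, the groups did not overlap for 9 of the 10 members with Nrf1 over LacZ, and for 70.6% of all genes tested. They did not overlap for 7 of the 10 members with Nrf2 over LacZ (61.7% of all genes) and for 7 of the 10 with Nrf2 over Nrf1 (63.7% of all genes), so that in both of these the members were near the share over all genes. A 2-sided exact permutation test of 3 libraries against 3 cannot go below p = 0.10, and it gave that smallest value for these members. Summed over all 10 members, the normalized count was 3154, 2823 and 3124 with LacZ, 5892, 5748 and 5792 with Nrf1 and 12073, 12315 and 12197 with Nrf2. The groups did not overlap in this sum, with LacZ lowest and Nrf2 highest. Gstp1 alone made up 1316 of the mean sum of 3034 with LacZ and 6972 of 12195 with Nrf2. The sum of Mgst1 and Mgst3 was highest with Nrf1, at a mean of 1192 against 1129 with Nrf2 and 497 with LacZ. The means of Mgst3, Gstk1 and Gsto1 were highest with LacZ, but of these only Mgst3 was called lower, with Nrf1, and the Gsto1 groups overlapped.

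The list of other transferase and MAPEG genes held 22 symbols, of which 19 were found and 11 reached a group mean of 10. With Nrf1, 4 of the 9 tested rose (Gstm4, Gstm7, Gstt2 and Gstt3) and 1 fell (Ptges, a prostaglandin E synthase). With Nrf2, 5 of 11 rose (Gsta2, Gsta3, Gstm7, Gstt2 and Mgst2) and 0 fell, with 0 lower at an unadjusted limma p under 0.05, while Hpgds, a prostaglandin D synthase gene, was called lower without the shallowest LacZ library (limma adjusted p = 0.0496). With Nrf2 over Nrf1, 4 of 11 were higher (Gsta2, Gsta3, Mgst2 and Ptges) and 1 was lower (Gstt3). Over all genes tested, 11.4% rose and 17.1% fell with Nrf1, and 9.26% rose and 9.71% fell with Nrf2. Between Nrf2 and Nrf1, 11.3% were higher and 4.72% lower. The same shares apply to the lists and markers that follow. Of the 5 that rose with Nrf2 over LacZ, 3 (Gsta2, Gsta3 and Gstt2) had a LacZ mean under 10 and were tested because of their Nrf2 mean, so that they could be counted only as higher. The same holds for Gstt2 with Nrf1 over LacZ, and for Gsta2 and Gsta3, whose Nrf1 means were also under 10, with Nrf2 over Nrf1. The alpha class genes Gsta2 and Gsta3 were under 10 in every library outside the Nrf2 group. Gsta2 stood at 0, 3.37 and 2.01 normalized counts with LacZ, 1.14, 2.93 and 0 with Nrf1 and 61.4, 51.6 and 61.3 with Nrf2. Its fold of 32.4 with Nrf2 rests on 5 reads in all LacZ libraries together (limma adjusted p = 9.42e-07). Those libraries held 0, 3 and 2 reads, so the size of the fold depends on which of them are kept. Gsta3 stood at 4.74, 4.49 and 1.01 with LacZ, 2.29, 8.78 and 0.947 with Nrf1 and 39.95, 47.2 and 42.3 with Nrf2, a fold of 12.6 over 9 LacZ reads (limma adjusted p = 3.60e-06). Neither gene had enough reads to be tested in the comparison of Nrf1 with LacZ, in which both group means were under 10.

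Mgst2, the third microsomal enzyme, stood at 101, 128 and 104 normalized counts with LacZ, 96.0, 114 and 124 with Nrf1 and 301, 274 and 255 with Nrf2. The Nrf2 libraries were above all others, and LacZ and Nrf1 overlapped. It rose 2.50-fold with Nrf2 (limma adjusted p = 1.59e-07), and its ratio with Nrf1 was 1.00 (adjusted p = 0.970). Mgst1, Mgst2 and Mgst3 each had a different pair of calls over LacZ. Among theta genes, Gstt3 stood at 14.2, 16.8 and 17.1 with LacZ, 41.2, 39.0 and 46.4 with Nrf1 and 26.3, 18.4 and 13.3 with Nrf2. The Nrf1 libraries were above all others, and Gstt3 was 2.19-fold lower with Nrf2 than with Nrf1 (limma adjusted p = 0.000464).

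Gstm4 rose 1.74-fold with Nrf1 (limma adjusted p = 3.86e-05) and its fold with Nrf2 was 1.45 (adjusted p = 0.00119), under the threshold except without the shallowest LacZ library, where the log2 ratio was 0.60. Gstt2 rose 2.65-fold with Nrf1 and 2.45-fold with Nrf2 from 7.11, 4.49 and 5.03 normalized counts in the LacZ libraries, and the call with Nrf2 was lost without the middle Nrf2 library (limma adjusted p = 0.0751). Gstm7 was called at 1.98-fold with Nrf1 and 1.81-fold with Nrf2, where its groups overlapped and the limma adjusted p was 0.0496. Without single libraries the call of Gstm7 with Nrf1 was lost in 2 of 6 cases (limma adjusted p up to 0.0987, without the shallowest LacZ library), and the call with Nrf2 held only without the deepest LacZ library. Ptges, 1.71-fold lower with Nrf1 (limma adjusted p = 0.029), was not called without the middle or deepest LacZ or the shallowest or middle Nrf1 library (limma adjusted p from 0.0629 to 0.0935). Its call with Nrf2 over Nrf1 (1.67-fold, limma adjusted p = 0.0474) held without a library only where that was the middle Nrf2 library. Gstz1, an enzyme of tyrosine breakdown, and Gstcd were not called in any comparison. Family genes with similar sequences, above all the alpha and the mu genes, can share reads in counting, so levels of close copies are uncertain. How reads matching several genes were handled is not given in the sources used here.

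**Figure D3:**
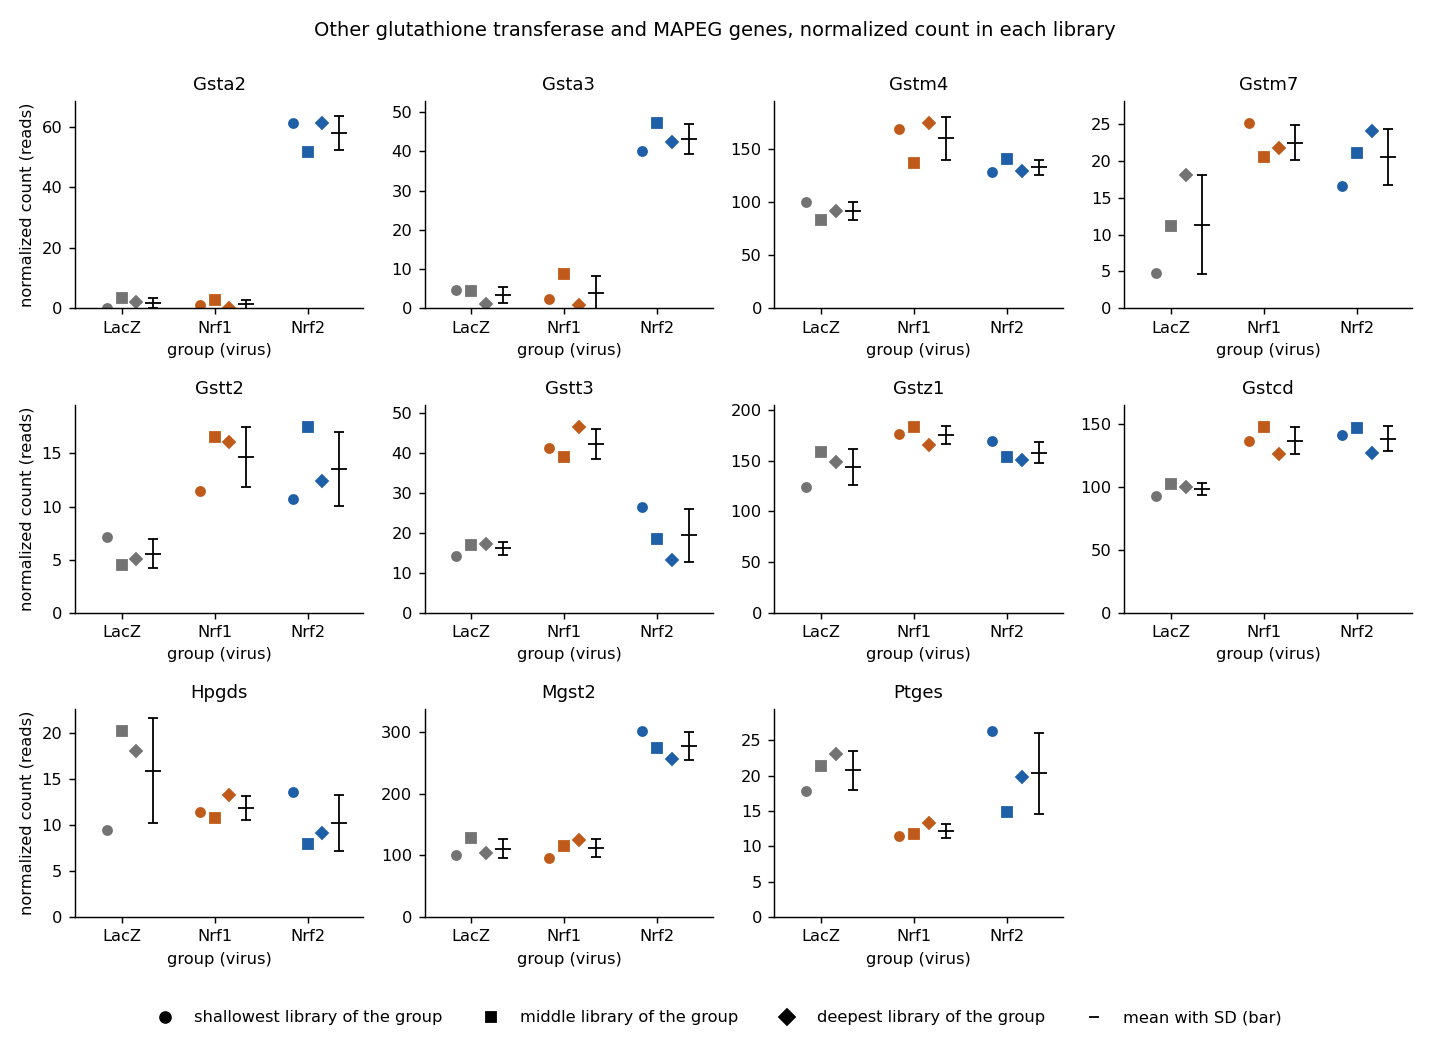
Normalized counts (vertical axes, from 0) of the 11 other family genes that reached a group mean of 10, in each library by group (horizontal axes), with the mean and SD over 3 libraries. Gsta2, Gsta3 and Mgst2 are high in the Nrf2 libraries alone, and Gstt3 is highest in the Nrf1 libraries.

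For 3 members the genes with the closest pair of log2 ratios over LacZ were looked up among 8697 genes that reached a group mean of 100. For Gstm1 (1.21 with Nrf1, 2.71 with Nrf2) these were Tubb4a (1.39, 2.80), Cd59 (1.07, 2.53) and Osgin1 (0.99, 2.66). For Mgst1 (2.52, 2.31) they were Ckmt2 (2.73, 2.37), Them6 (2.24, 2.12) and Blvrb (2.46, 1.91). For Gsta1 (-0.80, 2.67) they were Akr1b8 (-0.80, 2.47), an aldo-keto reductase, Hpse (-0.96, 2.87), which encodes heparanase, and Dgat2 (-0.67, 2.43), which encodes an enzyme of triglyceride synthesis. The Euclidean distance in log2 units to the nearest gene was 0.20 for Gstm1, 0.22 for Mgst1 and 0.20 for Gsta1.

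The transferases use glutathione made and reduced by other enzymes. Of the 16 genes tested for glutathione synthesis and recycling, 7 rose and 3 fell with Nrf1, and 10 rose and 1 fell with Nrf2. The largest ratios with Nrf1 were those of Gsr (2.72-fold), Gclm (2.67-fold), Pgd (2.52-fold) and Gss (2.35-fold), and with Nrf2 those of Gclm (4.81-fold), the cystine carrier gene Slc7a11 (4.30-fold), Pgd (4.21-fold) and Me1 (3.60-fold). Conjugates are exported and trimmed to mercapturates, and of the 16 genes tested for those steps, 2 rose and 5 fell with Nrf1, and 4 rose and 3 fell with Nrf2. Over all genes tested, 11.4% rose and 17.1% fell with Nrf1, and 9.26% rose and 9.71% fell with Nrf2. The 2 of 16 that rose with Nrf1 were near that share. Ggt1, which removes the glutamyl group, rose 3.47-fold with Nrf1 and 4.31-fold with Nrf2, the export pump gene Abcc4 rose 2.83-fold with Nrf2, and the dipeptidase gene Dpep1 was 5.16-fold and 2.21-fold lower. Dpep2 and Anpep were also lower with Nrf1, by 2.74-fold and 2.69-fold, and Anpep by 2.01-fold with Nrf2.

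The next list held other antioxidant genes, chosen as responsive to Nrf2. Of its 17 genes tested, 11 rose with Nrf1 and 13 with Nrf2, against 11.4% and 9.26% of all genes tested. Of these, Gpx2 with Nrf1, and Gpx2 and Cbr1 with Nrf2, had a LacZ mean under 10 and were tested because of the other mean, so that they could be counted only as higher. Fth1, also on the list, was not tested over LacZ because its LacZ reads were not recovered. Its group mean was 1.66-fold higher with Nrf1 and 3.26-fold higher with Nrf2, with no test. The 4 largest ratios were Gpx2 (8.01-fold, from a LacZ mean of 5.95), Blvrb (5.50-fold), Srxn1 (3.27-fold) and Prdx1 (2.55-fold) with Nrf1, and Srxn1 (6.84-fold), Nqo1 (6.74-fold), Osgin1 (6.33-fold) and Gpx2 (5.60-fold) with Nrf2. Of the detoxification partners, 1 of 14 tested rose and 5 fell with Nrf1, while 7 of 16 rose with Nrf2. Of these 7, 2 had a LacZ mean under 10, were tested because of their Nrf2 mean and were not tested with Nrf1, so the counts with Nrf1 and Nrf2 are not over the same genes. With Nrf1, the gene that rose and 1 of the 5 that fell likewise had 1 group mean under 10. The count of 1 was 2 without the deepest LacZ or the middle Nrf1 library. Akr7a3 rose 4.07-fold with Nrf1 and 27.0-fold with Nrf2. Its LacZ means, scaled separately for each pair, were only 9.71 and 10.4, with coefficients of variation of 55.0% and 54.9%. Adh7, the epoxide hydrolase gene Ephx1 and Akr1b8 were 3.47-fold, 2.89-fold and 1.75-fold lower with Nrf1. With Nrf2, Ptgr1, Aldh1a7 (from a LacZ mean of 5.73) and Akr1b8 rose 6.93-fold, 6.08-fold and 5.55-fold. In the direct comparison, 11.3% of all genes tested were higher with Nrf2 than with Nrf1. The counts higher with Nrf2 were 6 of 16, 5 of 16, 8 of 18 and 9 of 16 for these lists in the order given. The 8 of 18 include Fth1, which was tested in this comparison alone. Of the last 9, 3 had an Nrf1 mean under 10, Aldh1a7 among them, and were tested because of their Nrf2 mean. The largest folds there were Slc7a11 (5.24), Glrx (3.33), Me1 (1.95) and Gclm (1.79), then Dpep1 (2.32), Abcc4 (1.96), Ggt5 (1.804) and Dpep2 (1.597), then Nqo1 (4.89), Osgin1 (3.18), Txnrd1 (2.72) and Cbr1 (2.25), then Akr1b8 (9.64), Ptgr1 (6.78), Akr7a3 (6.58) and Aldh1a7 (5.86). The calls of Ggt5 and Dpep2 did not hold without some single libraries, so that only 3 of the 16 mercapturate genes were called without the deepest Nrf1, the middle Nrf2 or the deepest Nrf2 library.

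**Figure D4:**
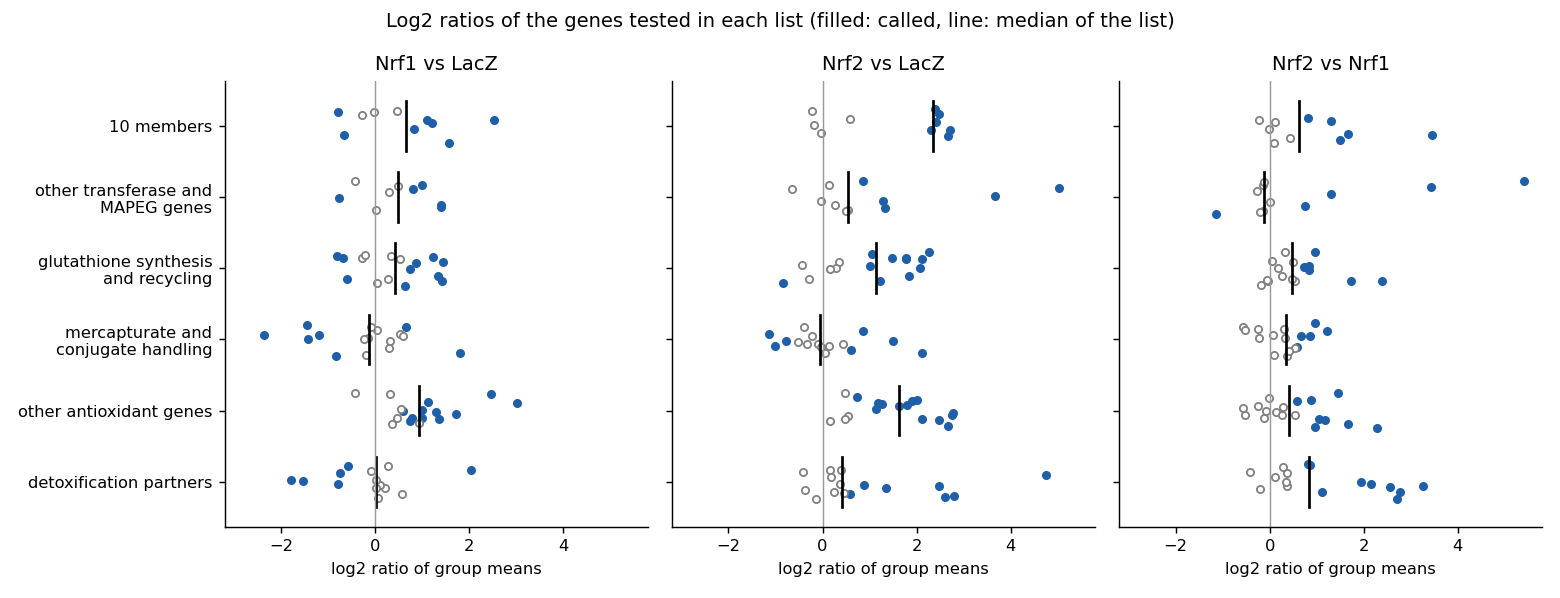
Log2 ratios of group means (horizontal axis) for the genes tested in each list (vertical axis), with filled points for genes called and a line for the median of the list. The members' median lies at 0.64 with Nrf1 and 2.35 with Nrf2 over LacZ, and the mercapturate and conjugate handling genes spread to both sides of 0.

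Markers of the cell types that such cultures can hold were read beside the members. In these bulk samples, fewer cells of a type and less RNA per cell cannot be told apart. Of 13 cardiomyocyte markers, 11 had values in each library, with summed levels of 161801, 150248 and 173342 normalized counts with LacZ, 159962, 158462 and 158250 with Nrf1 and 178285, 181510 and 179413 with Nrf2. The other 2, Nppa and Mybpc3, are in the tables as group means and are missing from these sums. Nppa had a LacZ mean of 41707.5 against 34991 for Actc1, the most abundant of the 11, and a mean 1.54-fold lower with Nrf1 and 1.16-fold lower with Nrf2, with no test. None of the 11 was at 0 in any group, and of the 11 tested 2 rose and 3 fell with Nrf1, the 2 becoming 1 without the middle LacZ library. At an unadjusted limma p under 0.05, 2 were higher and 7 lower with Nrf1. With Nrf2 over LacZ, limma and the fold called 0 of the 11, while 6 were higher and 2 lower at an unadjusted limma p under 0.05. The 12 fibroblast markers summed to 125041, 129988 and 123893 with LacZ, 31724, 34231 and 32789 with Nrf1 and 67288, 64605 and 69787.5 with Nrf2, with Col1a1 the most abundant and none at 0. All 12 fell with Nrf1 and 9 of 12 with Nrf2, where 17.1% and 9.71% of all genes tested fell.

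The 12 leukocyte markers summed to 2221, 3144 and 2190 with LacZ, 1277, 1295 and 1230 with Nrf1 and 1249, 1303 and 1232 with Nrf2. The middle LacZ library was high, Lyz2 was the most abundant in the LacZ group and Csf1r in the others, and 10 of the 11 tested fell with each factor. The 10 endothelial markers summed to 2253, 2335 and 2229 with LacZ, 1537, 1467 and 1547 with Nrf1 and 1724, 1438 and 1601 with Nrf2, led by Flt1 in LacZ and Nrf2 and by Kdr in Nrf1, and 7 of 10 fell with Nrf1, while 6 fell and 1 rose with Nrf2. The 8 smooth muscle and pericyte markers, led by Acta2, summed to 39913, 36715 and 43071 with LacZ, 61757.5, 62296 and 62576 with Nrf1 and 53433, 51013 and 50051.5 with Nrf2. Of these, 2 rose (Acta2 and Tagln) and 4 fell (Myh11, Notch3, Pdgfrb and Rgs5) with Nrf1, and 1 rose (Cnn1) and 1 fell (Pdgfrb) with Nrf2. The authors also describe Acta2 as a marker of an immature cardiomyocyte population of the neonatal mouse heart. Of the 4 that fell with Nrf1, 1 had an Nrf1 mean under 10, was tested because of its LacZ mean, and was not called without the middle LacZ or the middle Nrf1 library. Of the 5 epicardial markers tested, 4 fell with Nrf1 and 2 fell and 1 rose with Nrf2, of the 4 Schwann and neuronal markers tested 3 rose and 1 fell with Nrf2 and 1 fell with Nrf1, and the erythroid markers summed to 33.2 or less in every library. Of the epicardial markers that fell with Nrf1, 1 was likewise under 10 in the Nrf1 group, as was the Schwann or neuronal marker that fell with Nrf1, and the marker that fell with Nrf2 was under 10 in the Nrf2 group. The call of the Schwann or neuronal marker that fell with Nrf2 was lost without the middle LacZ library or any single Nrf2 library. With Nrf2 over Nrf1, 8 of 12 fibroblast markers were called higher and 1 lower, and 4 of 13 cardiomyocyte, 4 of 8 smooth muscle and pericyte, 3 of 3 Schwann and neuronal, 2 of 5 epicardial, 3 of 11 leukocyte and 1 of 10 endothelial markers were called higher. Over all genes tested, 11.3% were called higher and 4.72% lower there. Of the 4 smooth muscle and pericyte markers, 1 had an Nrf1 mean under 10 and was tested because of its Nrf2 mean. The leukocyte count was 1 without the shallowest Nrf1 or the middle Nrf2 library, and the endothelial count was 3, with 1 lower, without the middle Nrf2 library. The part of these cell types in the differences of the transferase genes was not tested.

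**Figure D5:**
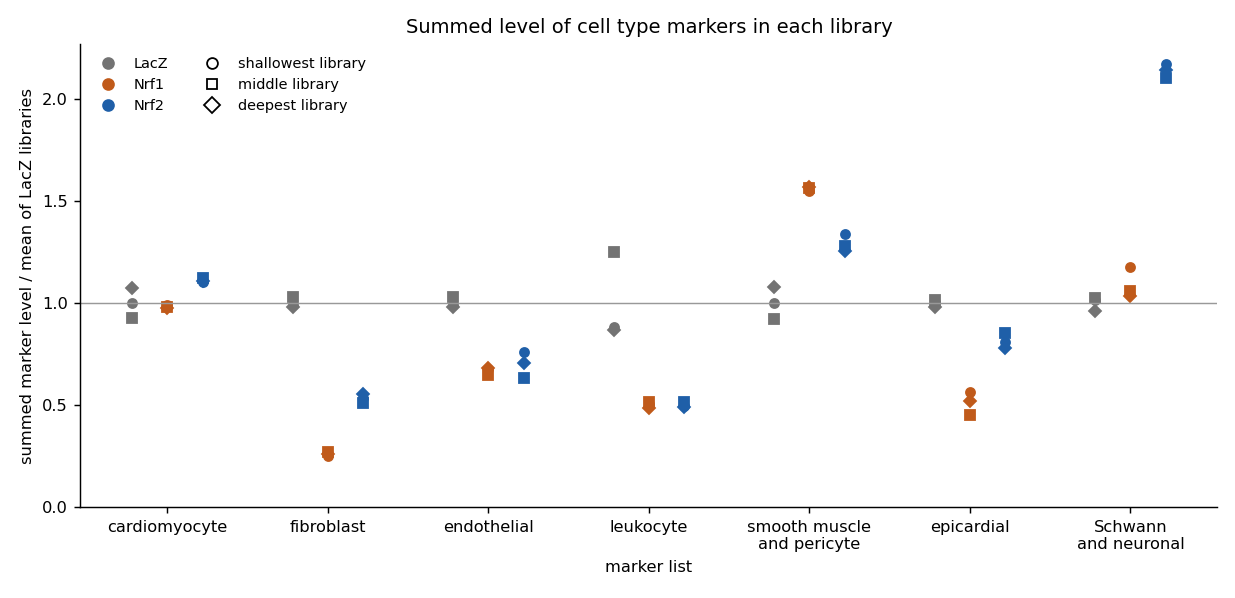
Summed level of each marker list (horizontal axis) in every library, divided by the mean of the LacZ libraries (vertical axis, from 0). Fibroblast, leukocyte, endothelial and epicardial sums are lower in all Nrf1 and Nrf2 libraries than in the LacZ libraries. Smooth muscle and pericyte sums, led by Acta2, are higher in all of them, although 4 of the 8 markers fell with Nrf1. Schwann and neuronal sums are highest with Nrf2. Cardiomyocyte sums, which leave out Nppa and Mybpc3, differ least.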

How the data were processed

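Bulk RNA-seq of 9 NRVM samples was analysed, grouped by the LacZ, Nrf1 and Nrf2 labels, 3 libraries each. The authors aligned reads to rat Rnor_6.0 with HISAT2 2.0.4, removed duplicates with SAMtools 0.1.18, counted genes with featureCounts 1.6.0 and compared groups with edgeR 3.20.5. The 3 deposited tables, 1 for each pair of groups, hold as signal the authors' mean normalized count of each group. They also hold the authors' fold changes and p-values, which were not used. Each mean is a sum of whole reads times 1 step per library, so the reads of each library were solved for: a single solution was found for 99.9% of genes in LacZ and 100.0% in Nrf1 and Nrf2 among genes in both tables. Size factors computed from these reads as medians of ratios differed from the authors' by at most 0.013%. Whether edgeR set the scaling of the deposited means was not checked. Libraries could not be tied to replicate numbers. The 26 symbols in each LacZ table that a spreadsheet had turned into dates were left out.

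limma 3.58.1 (R 4.3.3, moderated with a mean-variance trend, Benjamini-Hochberg over all genes) was fitted for each pair on genes whose mean reached 10 in either group, at the authors' scaling. Ratios and counts past the fold rest on the deposited means alone, and the fit was added since the reads of each library could be recovered. Tables were not compared across pairs, with these exceptions. Levels and sums per library used a common scale, which moved the members' log2 ratios by at most 0.0048. The search for the nearest genes took each gene's ratios from both tables that hold LacZ. Members and lists were chosen with earlier results of these data known. The members named are all 10. Other family genes were named where a group mean reached 10, from each further list the 4 largest ratios, and for 3 members the 3 genes with the nearest ratios. No rat sequence was used.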

Additional observations from a re-analysis of the deposited data

Results flagged for a closer look

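Gsta1 was called lower with Nrf1 and higher with Nrf2, and the direct test between Nrf2 and Nrf1 gave a limma log2 difference of 3.45.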

How the results depend on the processing

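The members called were recounted under another fold, scaling, pseudocount and floor and without each library in turn, and also with a limma pseudocount of 0.5 and without its trend, alternatives chosen after seeing the data. The count of members lower with Nrf1 went from 2 to 0 at 2-fold, and the count higher with Nrf1 from 5 to 4 (Gsta4), since these 3 were under it, where 9.72% of genes tested were called lower and 4.19% higher. With Nrf2 over Nrf1 it went from 5 to 4 (Gstm2), where 5.81% were called higher. The members' median log2 ratios were 0.64 (Nrf1 over LacZ), 2.35 (Nrf2 over LacZ) and 0.63 (Nrf2 over Nrf1). They moved to 0.96, 2.40 and 1.06 with a floor of 100. Over all family genes reaching 10 in either group they were 0.47, 0.86 and 0.11. With 10 reached in both groups, a setting chosen after seeing the data, they were 0.47, 0.56 and 0.082. These all use other genes. At equal sums the Nrf2 over LacZ median was 2.27. Without each library it ran from 2.27 to 2.37. The log2 ratio of Gsto1 between Nrf2 and Nrf1 went from -0.021 to 0.012 on re-centring, which subtracts the median of -0.033 from the ratio of every gene.
Without single libraries, that ratio ran from -0.090 to 0.020, and it ran from -0.036 to 0.0054 with Nrf1 over LacZ and from -0.10 to 0.0088 with Nrf2 over LacZ. Between Nrf2 and Nrf1, Gstt1 ran from -0.020 to 0.24 and Gstk1 from -0.015 to 0.19. None of these was called. The count higher with Nrf2 over LacZ was 7 without the middle Nrf2 library, where Gstt1 passed. No paired analysis was possible because the recovered libraries carry no replicate number.
Gstt1 had 16 to 36 reads a library, the fewest of the members.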
